A study of Mus musculus with 8 samples.

Results

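The genes described here are 48 that encode lysosomal enzymes, their cofactors, lysosomal membrane proteins and a transcription factor of the lysosome, out of 22756 genes counted in each library. They were taken by symbol from a list of lysosomal genes, without a rule on their counts, but with earlier results of these data known. A match by name was found for 47, and Tfeb was found under its older symbol Tcfeb. With a separate row for a second, shorter gene model under the symbol Glb1 the 48 genes have 49 rows. The question was whether the level of Ctsd, the aspartic protease cathepsin D, differed between genotypes and with cigarette smoke (CS) alone, together with the other proteases, or together with lysosomal genes in general. RNA-Seq was done on cells of the distal lung of adult mice, over 90percent C57BL/6 by the labels, that carried a Chrna7 gene followed by an IRES-tauGFP reporter, either with the normal coding sequence (α7G) or with the E260A substitution (α7E260A:G). This point mutation limits the coupling of the α7 nicotinic receptor to calcium signaling and is present in every cell of these mice, not in the lung alone. Exposed mice breathed side-stream CS for 4 months, 5 days in each week, the other mice served as controls, and each of the 4 groups has 1 male and 1 female library. The lungs were lavaged and CD45+ cells were depleted to enrich epithelium. The study's methods report that nearly all of the remaining cells carried EpCAM, and few CD31, before libraries were made. How many mice went into a library is not given in the sources used here.

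The lysosome is an acidic organelle in which proteins, glycans and lipids that arrive by endocytosis, phagocytosis or autophagy are taken apart. Soluble hydrolases reach it mostly through the mannose 6-phosphate tag, heavily glycosylated membrane proteins such as LAMP1 line it, and the vacuolar proton pump (V-ATPase) keeps it acidic. In the lung, alveolar macrophages are rich in lysosomes that digest inhaled particles and surfactant, and alveolar type 2 (AT2) cells store surfactant in lamellar bodies, which are related to lysosomes. Many lysosomal genes carry E-box letters in their promoters that are bound by TFEB, a factor that raises their transcription when nutrients are short or the lysosome is damaged.

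The promoter letters were read from RefSeq windows of 300 bases (build GRCm38.p6, 250 bases before the transcript start and 50 after), which matched 42 of the 48 genes. The palindrome CACGTG, the same on both strands, was present in the windows of 12 of these 42 genes (28.6%) and of 8.09% of 27025 genes with a window. The longer TCACGTGA, which contains it, was found in Ctsa, Ctsd, Gla and Mcoln1 (9.52% of the 42 genes, against 1.12% of all genes). The windows of these 4 genes are given here with that of Lamp1, which holds the most copies, and capitals mark CACGTG. A match describes letters only and is not evidence of binding.
Ctsd (chr7:142387778-142388077, minus strand): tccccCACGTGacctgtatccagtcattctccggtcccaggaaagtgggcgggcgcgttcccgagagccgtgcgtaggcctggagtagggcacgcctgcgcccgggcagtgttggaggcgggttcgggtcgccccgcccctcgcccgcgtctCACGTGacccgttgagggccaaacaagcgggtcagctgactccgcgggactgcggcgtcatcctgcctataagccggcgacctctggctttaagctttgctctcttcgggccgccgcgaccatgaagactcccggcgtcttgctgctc
Ctsa (chr2:164833523-164833822, plus strand): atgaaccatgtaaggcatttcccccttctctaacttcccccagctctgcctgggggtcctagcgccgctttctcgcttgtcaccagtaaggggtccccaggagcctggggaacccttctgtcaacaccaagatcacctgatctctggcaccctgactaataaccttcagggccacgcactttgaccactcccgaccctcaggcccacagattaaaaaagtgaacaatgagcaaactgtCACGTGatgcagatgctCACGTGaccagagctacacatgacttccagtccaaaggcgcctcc
Gla (chrX:134600956-134601255, minus strand): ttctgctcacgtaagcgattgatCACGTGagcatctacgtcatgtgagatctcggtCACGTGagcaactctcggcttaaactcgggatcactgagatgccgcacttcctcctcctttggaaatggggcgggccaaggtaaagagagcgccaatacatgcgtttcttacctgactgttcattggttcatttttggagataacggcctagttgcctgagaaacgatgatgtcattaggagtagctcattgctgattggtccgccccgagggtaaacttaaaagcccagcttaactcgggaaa
Mcoln1 (chr8:3500269-3500568, plus strand): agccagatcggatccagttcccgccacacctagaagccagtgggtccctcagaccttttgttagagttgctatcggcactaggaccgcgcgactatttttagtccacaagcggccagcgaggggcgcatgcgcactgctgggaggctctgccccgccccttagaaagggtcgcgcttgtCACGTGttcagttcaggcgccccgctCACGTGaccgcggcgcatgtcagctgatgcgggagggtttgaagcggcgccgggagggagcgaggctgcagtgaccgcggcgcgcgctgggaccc
Lamp1 (chr8:13158911-13159210, plus strand): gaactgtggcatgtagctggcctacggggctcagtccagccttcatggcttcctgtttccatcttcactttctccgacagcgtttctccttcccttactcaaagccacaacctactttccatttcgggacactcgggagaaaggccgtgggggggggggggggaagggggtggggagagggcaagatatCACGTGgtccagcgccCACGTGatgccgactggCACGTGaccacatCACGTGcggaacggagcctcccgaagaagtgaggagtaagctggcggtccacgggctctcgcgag
Counted from the transcript start, the first base of the motif lies at -245 and -98 in Ctsd, -12 and +6 in Ctsa, -227 and -194 in Gla, -71 and -45 in Mcoln1 and -61, -45, -28 and -15 in Lamp1.

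Counts were of reads on coding sequence (CDS), with totals of 8020726 to 10944100 per library. Each count was divided by its library total to give RPM (reads per 1000000 reads), and values are given below for the male and then the female library of a group. The spread within a group is that between 1 male and 1 female library, and p-values measure only the spread between these libraries. The deviation of a gene's log2 level from its mean over the libraries changed with CDS length, most in the male α7E260A:G control (by 0.41 per doubling of the length), so results are also given with this dependence removed by an offset. Only genes whose count averaged 200 or more were tested, 7191 in all, and 46 of the 49 rows of lysosomal genes were among them. Chrna7 itself was at 0 counts in 7 libraries and at 4 in the male α7E260A:G control, and CDS counts do not show the substitution. Epithelial markers (Epcam, Cdh1, keratins, claudins) had counts in every library, as did markers of alveolar macrophages. Epcam was at 175 ± 34.3 RPM in α7G and 85.5 ± 6.19 in α7E260A:G, and Ptprc, which encodes CD45 of the leukocytes that were depleted, at 1224 ± 552 RPM in α7G and 1267 ± 460.4 in α7E260A:G (SD, n = 4).

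Ctsd was higher in α7E260A:G than in α7G and it was not alone. Of the 46 lysosomal genes tested, 43 had a positive log2 fold change between the genotypes over both exposures, with a median of 0.50, against 56.1% of all genes tested and a median of 0.038. For the 12 proteases the median was 0.64 with 12 of 12 higher, and for the 34 other genes it was 0.48 with 31 of 34 higher. Ctss, Pla2g15 and Gla, a protease, a phospholipase and a glycosidase, had ratios of the genotype means above that of Ctsd. No member passed an adjusted p of 0.05 in edgeR's quasi-likelihood test, as 0.0834% of all genes tested did. At an unadjusted p under 0.05 in that test, 26 were higher and 0 lower, where 7.09% of all genes were higher.

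**Figure D1:**
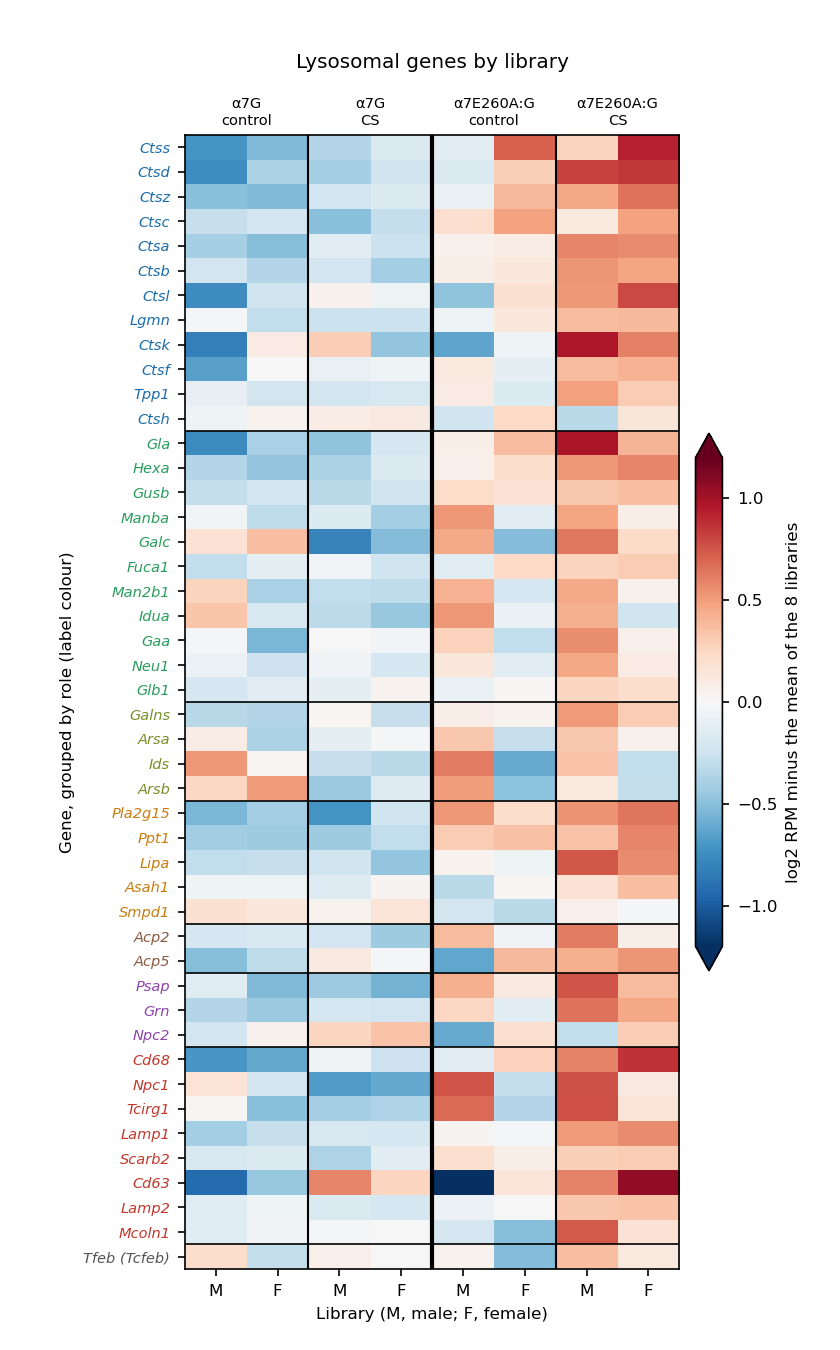
Level of each of the 46 tested lysosomal genes (rows, grouped by role) in each of the 8 libraries (columns), as log2 RPM minus the mean of the 8 libraries. The 4 α7G libraries are mostly below the mean and the α7E260A:G CS libraries mostly above it, in proteases and in the other roles.

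Summed over all 49 rows, lysosomal genes took 2.03% and 2.08% of the CDS counts in α7G control, 2.22% and 2.26% in α7G CS, 2.74% and 3.18% in α7E260A:G control and 3.93% and 4.10% in α7E260A:G CS. Every α7E260A:G library was thus above every α7G library, and the α7E260A:G CS libraries were the highest. The mean share was 2.15% ± 0.108 in α7G and 3.49% ± 0.637 in α7E260A:G (SD, n = 4 libraries each). Without Ctsd it was 1.72% ± 0.0686 and 2.67% ± 0.383. Ctsd made up 16.9% to 21.7% of all lysosomal counts in α7G and 18.6% to 25.8% in α7E260A:G, ranges that overlap. Counting error alone, as the 95% Wilson interval of this share, spanned no more than 0.0269 percentage points in any library.

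Cathepsin D degrades proteins in the lysosome and activates other hydrolases. Ctsd (ENSMUSG00000007891.8, chromosome 7, 149557053 to 149573943 of mm9, minus strand) had 3439 and 4431 RPM in α7G control, 4384 and 4904 in α7G CS, 5117 and 7048 in α7E260A:G control and 10128 and 10411 in α7E260A:G CS. The highest α7G library was below the lowest α7E260A:G library, and both α7E260A:G CS libraries were above all others. Its level was 4289.8 ± 614 RPM in α7G and 8176 ± 2546 in α7E260A:G (SD, n = 4), a log2 fold change of 0.97 ± 0.26 (± standard error, here and below; adjusted p = 0.18 in edgeR, 0.0269 with the CDS length offset). A share of 10.9% of its CDS overlaps another gene model on the same strand, 6330512M04Rik, and reads there could not be assigned by such counting, so its counts may miss them. Per kilobase of coding length Ctsd had the highest mean level of all lysosomal genes, 4155 RPKM (RPM per kilobase) over the 8 libraries, followed by Ctss with 3813, Psap with 2353 and Npc2 with 1373.

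Cathepsin S is a cysteine protease that trims the invariant chain of MHC class II. Ctss (chromosome 3, 95330708 to 95360325) had 2220.3 and 2512 RPM in α7G control, 2847 and 3216 in α7G CS, 3318 and 5984 in α7E260A:G control and 4375 and 6920.3 in α7E260A:G CS. All 4 α7E260A:G libraries were above all 4 α7G libraries, and in α7E260A:G the female libraries were above the male ones. Its log2 fold change was 1.04 ± 0.34, the highest of the lysosomal genes (adjusted p = 0.253 in edgeR, 0.0277 with the offset). The cysteine proteases Ctsb, Ctsc and Ctsz and the carboxypeptidase Ctsa, which also protects lysosomal galactosidase and sialidase, had log2 fold changes of 0.68, 0.74, 0.81 and 0.72, and for each of them the genotypes did not overlap. The remaining tested proteases Ctsl, Lgmn, Ctsk, Ctsf and Tpp1 lay between 0.43 and 0.60, with overlapping libraries. Cathepsin H, which takes part in the processing of surfactant protein B in AT2 cells, was the exception. Ctsh had 531 and 567 RPM in α7G control, 585 and 592 in α7G CS, 466 and 652 in α7E260A:G control and 441 and 609 in α7E260A:G CS, without separation of the genotypes and with a log2 fold change of 0.025 ± 0.25 (adjusted p = 0.992, edgeR).

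Among the glycosidases, which remove sugars from glycans and glycolipids, 11 of 11 tested were higher, with a median log2 fold change of 0.43. Hexa encodes the alpha subunit of beta-hexosaminidase, the enzyme that degrades ganglioside GM2. It had 461 and 423 RPM in α7G control, 451 and 525 in α7G CS, 615 and 680.4 in α7E260A:G control and 843 and 883 in α7E260A:G CS. The genotypes did not overlap, and the log2 fold change was 0.76 ± 0.18 (adjusted p = 0.139 in edgeR, 0.0236 with the offset). Man2b1, the lysosomal alpha-mannosidase, had 699 and 444 RPM in α7G control, 472 and 471 in α7G CS, 776 and 502 in α7E260A:G control and 796 and 603 in α7E260A:G CS. Here the male α7G control was above both female α7E260A:G libraries, and the log2 fold change was 0.41 ± 0.18. Gla, the alpha-galactosidase that is deficient in Fabry disease, was expressed far less. It had 20.0 and 25.8 RPM in α7G control, 24.3 and 29.4 in α7G CS, 35.8 and 43.8 in α7E260A:G control and 66.8 and 45.02 in α7E260A:G CS, again without overlap, and a log2 fold change of 0.99 ± 0.22 (adjusted p = 0.124 in edgeR, 0.0187 with the offset). Gusb, the beta-glucuronidase, was the third glycosidase without overlap, with 234 ± 7.88 RPM in α7G and 339 ± 20.4 in α7E260A:G (SD, n = 4) and a log2 fold change of 0.60 ± 0.16. The other 7 tested ranged from 0.27 for Glb1 to 0.52 for Manba.

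The sulfatases, which remove sulfate from glycosaminoglycans and sulfolipids, had the lowest median of the enzyme classes, 0.19 over 4 tested genes. Ids, the iduronate sulfatase, had 106 and 75.2 RPM in α7G control, 60.8 and 59.0 in α7G CS, 113 and 48.5 in α7E260A:G control and 93.4 and 60.0 in α7E260A:G CS. Both genotypes spanned nearly the same range, with the male library above the female in each group, and the log2 fold change was 0.12 ± 0.23. Galns, which acts on keratan sulfate, had 41.4 and 40.9 RPM in α7G control, 52.7 and 43.0 in α7G CS, 54.8 and 53.5 in α7E260A:G control and 73.9 and 64.4 in α7E260A:G CS. Its genotypes did not overlap, with the highest α7G library just under the lowest α7E260A:G library (log2 fold change 0.53 ± 0.16, adjusted p = 0.209 in edgeR, 0.052 with the offset). Arsa had a log2 fold change of 0.27 and Arsb one of -0.01.

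Of the 5 lipid hydrolases 4 were higher and 3 had no overlap of the genotypes. Pla2g15, the lysosomal phospholipase A2 that is abundant in alveolar macrophages and takes part in surfactant breakdown, had 93.0 and 103 RPM in α7G control, 82.9 and 115 in α7G CS, 195 and 157 in α7E260A:G control and 197 and 213 in α7E260A:G CS. Each α7E260A:G library was above every α7G library, and the log2 fold change of 1.01 ± 0.18 had an adjusted p of 0.105 in edgeR, the lowest of the lysosomal genes, and of 0.00704 with the offset, where that of Ppt1 was lower (0.00586). Lipa, the acid lipase that releases cholesterol from its esters, had 279 and 283 RPM in α7G control, 291 and 246 in α7G CS, 352 and 328 in α7E260A:G control and 574 and 507 in α7E260A:G CS. The genotypes were separate, with the α7E260A:G CS libraries highest and a log2 fold change of 0.71 ± 0.15 (adjusted p = 0.115, 0.0088 with the offset, edgeR). Ppt1, a thioesterase that removes palmitate from proteins, was also separate, with 169 ± 7.58 RPM in α7G and 293 ± 27.0 in α7E260A:G (SD, n = 4) and a log2 fold change of 0.87 ± 0.18. Asah1, the acid ceramidase, had 317 and 315 RPM in α7G control, 295 and 335 in α7G CS, 261 and 332 in α7E260A:G control and 369.8 and 422 in α7E260A:G CS. Its genotypes overlapped and its log2 fold change was 0.20 ± 0.21. Smpd1, the acid sphingomyelinase, had 101 and 96.5 RPM in α7G control, 91.0 and 98.4 in α7G CS, 75.8 and 70.5 in α7E260A:G control and 92.1 and 87.7 in α7E260A:G CS, which gave the lowest log2 fold change of the lysosomal genes (-0.19 ± 0.14, adjusted p = 0.731, edgeR) with overlapping libraries.

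Of the acid phosphatases, Acp5, the tartrate-resistant enzyme of macrophages and osteoclasts, had 185 and 213 RPM in α7G control, 284 and 261 in α7G CS, 171 and 345 in α7E260A:G control and 353 and 379 in α7E260A:G CS. The male α7E260A:G control was the lowest of all libraries, and the log2 fold change was 0.50 ± 0.30. Acp2, the lysosomal acid phosphatase, had 38.7 and 39.3 RPM in α7G control, 38.1 and 33.2 in α7G CS, 57.8 and 43.3 in α7E260A:G control and 68.1 and 46.9 in α7E260A:G CS. It was separate between the genotypes with a log2 fold change of 0.58 ± 0.15.

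Of the soluble cofactors, which assist the hydrolases or carry lipids, 2 of 3 were higher. Psap encodes prosaposin, the precursor of the saposins that present sphingolipids to their hydrolases. It had 3442 and 2642 RPM in α7G control, 2819 and 2561 in α7G CS, 5121 and 4100.4 in α7E260A:G control and 6397 and 4959 in α7E260A:G CS. The genotypes did not overlap, the male library was above the female in each group, and the log2 fold change was 0.89 ± 0.18 (adjusted p = 0.112 in edgeR, 0.00861 with the offset). Grn, progranulin, had 576 and 539.5 RPM in α7G control, 633 and 625 in α7G CS, 873 and 672 in α7E260A:G control and 1149.7 and 1013 in α7E260A:G CS. It was separate as well, with a log2 fold change of 0.68 ± 0.14 (adjusted p = 0.112 in edgeR, 0.0117 with the offset). Npc2, which carries cholesterol out of the lysosome together with NPC1, had 511 and 619.7 RPM in α7G control, 718 and 759 in α7G CS, 393 and 687 in α7E260A:G control and 487 and 735 in α7E260A:G CS. The genotypes overlapped, with both male α7E260A:G libraries below all others, and its log2 fold change was -0.064 ± 0.31.

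All 8 membrane proteins tested were higher, with a median log2 fold change of 0.55. Lamp1 had 721 and 789 RPM in α7G control, 836 and 826 in α7G CS, 976 and 949 in α7E260A:G control and 1366 and 1419 in α7E260A:G CS. All α7E260A:G libraries were above all α7G libraries, those with CS most, and the log2 fold change was 0.62 ± 0.17 (adjusted p = 0.183 in edgeR, 0.0169 with the offset). Cd68, a LAMP-like glycoprotein used as a macrophage marker, had 485 and 514 RPM in α7G control, 767 and 663 in α7G CS, 719.8 and 952 in α7E260A:G control and 1195 and 1436 in α7E260A:G CS. The male α7G CS library lay just above the male α7E260A:G control, and the log2 fold change was 0.90 ± 0.23 (adjusted p = 0.159 in edgeR, 0.00827 with the offset). Npc1, Tcirg1 (a membrane subunit of the proton pump) and Scarb2 (the receptor that brings beta-glucocerebrosidase to the lysosome) had 0.76, 0.71 and 0.49, and of these Scarb2 alone had genotypes without overlap. The tetraspanin Cd63, Lamp2 and the calcium channel Mcoln1 had 0.47, 0.37 and 0.17. Tfeb (as Tcfeb) had 68.0 and 48.1 RPM in α7G control, 61.3 and 59.0 in α7G CS, 60.6 and 40.8 in α7E260A:G control and 75.2 and 63.6 in α7E260A:G CS. Its libraries overlapped, with a log2 fold change of 0.056 ± 0.16 (adjusted p = 0.96, edgeR).

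**Figure D2:**
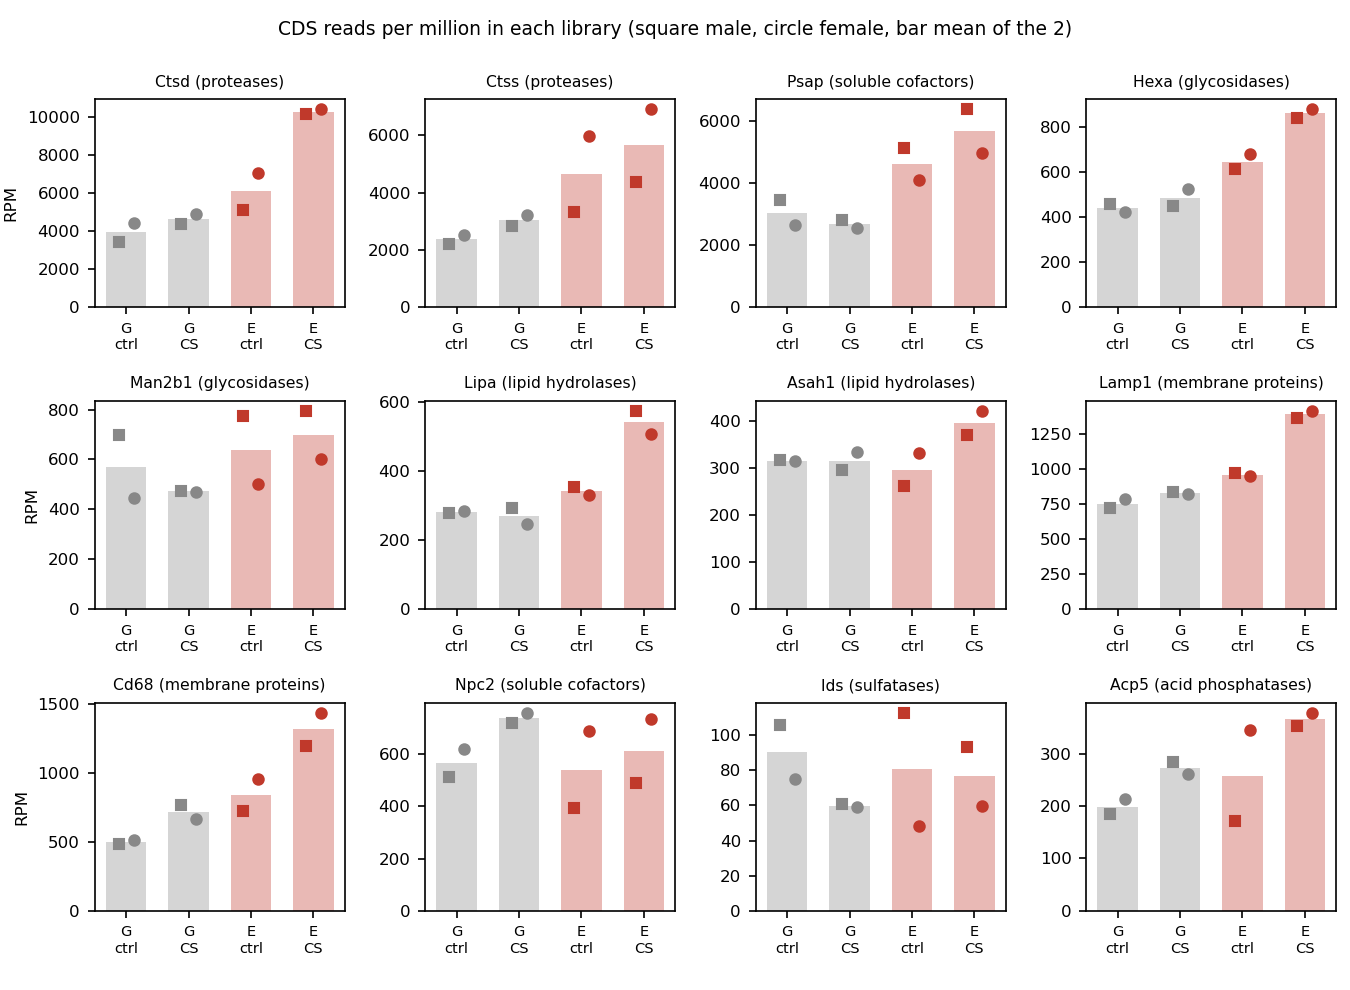
RPM of 12 lysosomal genes in the 4 groups (G, α7G; E, α7E260A:G; ctrl, control; vertical axes start at 0), with the male library as a square, the female as a circle and their mean as a bar. For Ctsd, Ctss, Psap, Hexa, Lipa and Lamp1 the 4 α7E260A:G points are above the 4 α7G points, while for Npc2 and Ids the genotypes overlap.

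Over all 46 tested genes, the 4 α7E260A:G libraries were above the 4 α7G libraries without overlap for 18 and below them for 0, where 2.99% of all tested genes were above without overlap. A single gene of this kind has p = 0.0286, the smallest two-sided p that an exact permutation test of 4 against 4 libraries gives, and after adjustment over all 7191 genes the lowest exact permutation p was 0.351. Proteases gave 6 of the 18 (of 12 tested) and the others 12 (of 34 tested). Paired with the α7G library of its own sex and exposure, the α7E260A:G library was higher in 4 of 4 cases for 31 of the 46 genes, against 7.84% of all genes. Taken pair by pair, 37 of 46 were higher in male controls (47.3% of all genes), 37 in female controls (28.0%), 44 in males after CS (60.0%) and 43 in females after CS (46.2%). The median log2 ratio of RPM in these pairs was 0.31, 0.23, 0.65 and 0.57 for the lysosomal genes and -0.026, -0.32, 0.15 and -0.033 for all genes.

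By edgeR with Benjamini-Hochberg adjustment over all genes, 0 lysosomal genes passed an adjusted p of 0.05, as 6 of all 7191 genes did (0.0834%), and the adjusted p of the lysosomal genes ran from 0.105 to 0.993. At an unadjusted p under 0.05, 26 of 46 were higher and 0 lower, where 7.09% of all genes were higher, namely 8 of 12 proteases and 18 of 34 others. DESeq2 called 22 of the 46, all higher, where it called 3.69% of all genes as higher. With the offset for CDS length edgeR called 20, all higher (4.02% of all genes), 7 of them proteases and 13 others. Without the male α7G CS library the count with the offset was 1, without the female one 3, without the female or male α7G control 6 and 9, and without the female α7E260A:G CS 10.

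**Figure D3:**
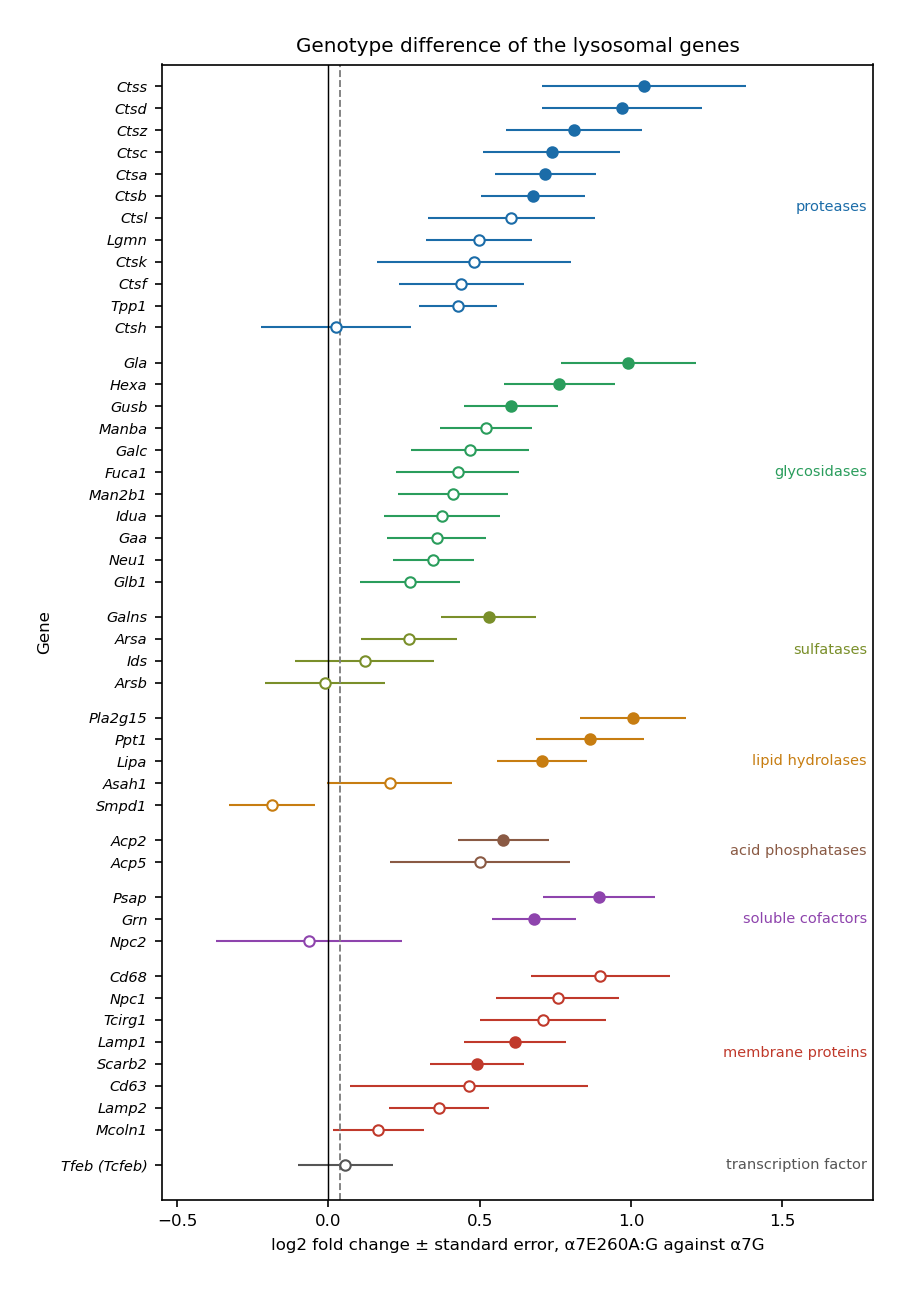
log2 fold change between the genotypes over both exposures (horizontal axis, bars are ± standard error from edgeR) for each tested lysosomal gene, coloured by role. Filled points mark the 18 genes whose 4 α7E260A:G libraries are all above the 4 α7G libraries, and the dashed line is the median of all 7191 genes (0.038). Smpd1, Npc2 and Arsb lie below 0, and the other 43 genes, proteases and others, above it.

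Marker genes of other cells differed between the same libraries. Of 28 tested alveolar macrophage markers 28 were higher in α7E260A:G (56.1% of all genes), with a median log2 fold change of 0.89. Of them 15 were higher without overlap of the genotypes (2.99% of all genes). An adjusted p of 0.05 in edgeR with the CDS length offset was passed by 23, all higher (4.02% of all genes). Their summed level was 25854 to 37978 RPM in α7G and 44711 to 77832 in α7E260A:G, and 0 of the 29 markers found had a count of 0 in any library. Cd68, described above, is itself a macrophage marker, and several of the listed genes, such as Lyz2, Cd9 and Plin2, are also expressed by other lung cells. Of 10 tested AT2 markers 0 were higher (median -1.19), with sums of 20389 to 30984 RPM in α7G and 4927 to 15040.2 in α7E260A:G. General epithelial markers summed to 1264 to 1955 and 1045 to 1573 RPM (1 of 6 higher, median -0.62), and pan-leukocyte genes to 8283 to 10140.0 and 9352 to 9855 RPM (6 of 9 higher, median 0.17). The part of these cells in the levels of the lysosomal genes was not tested, and in such bulk libraries fewer cells of a type and less RNA per cell cannot be told apart.

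**Figure D4:**
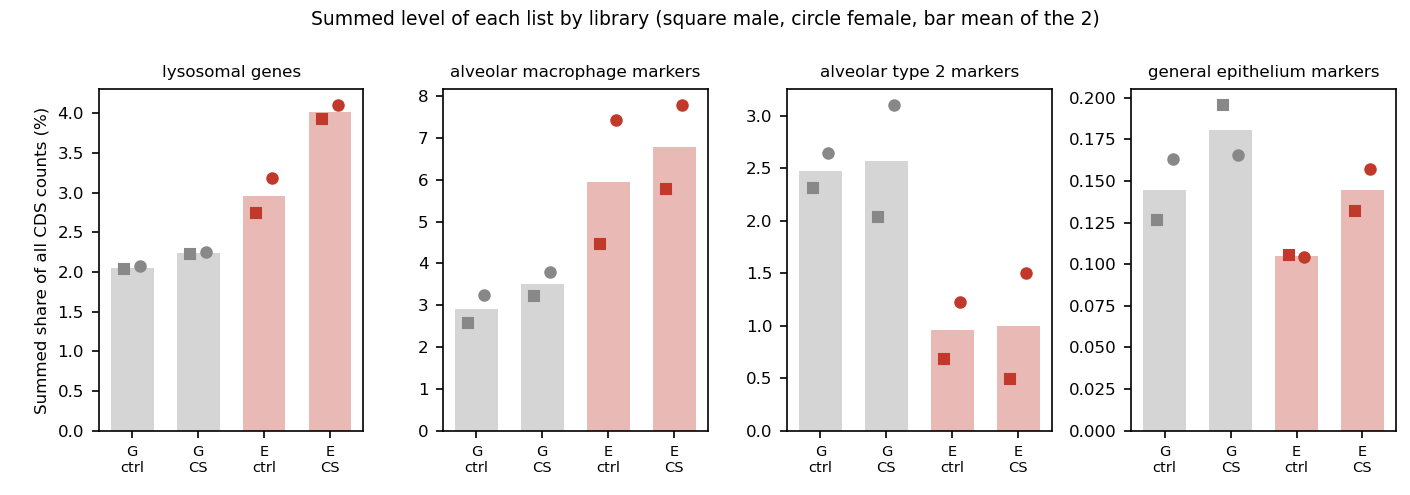
Summed share of all CDS counts (percent, vertical axes start at 0 and differ in scale) of the lysosomal genes, alveolar macrophage markers, AT2 markers and general epithelial markers in each library (G, α7G; E, α7E260A:G; square, male; circle, female; bar, mean of both). Lysosomal genes and macrophage markers are higher and AT2 markers lower in all 4 α7E260A:G libraries than in all 4 α7G libraries.

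The markers of further cell types were read in the same way. The median log2 fold changes between the genotypes were -0.78 for 6 alveolar type 1 markers, -0.69 for 8 club cell markers, -0.38 for 5 ciliated cell markers, -0.29 for 7 endothelial markers and -0.99 for 5 B cell markers. They were -0.24 for 8 T cell, 0.21 for 6 neutrophil and 0.58 for 6 fibroblast markers.

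Over both genotypes, 38 of the 46 genes were higher with CS (49.5% of all genes), with a median log2 fold change of 0.20, 0.32 for proteases and 0.15 for the others. With the CDS length offset these medians were 0.22 for proteases and 0.17 for the others. Alveolar macrophage markers had a median of 0.16 over 28 genes, and 0.017 with the offset, and their part was not tested. The test called 0 (0% of all genes), and at an unadjusted p under 0.05 there were 5 higher and 0 lower (2.49% of all genes were higher), Cd63, Cd68, Mcoln1, Ctsa and Grn, of which 1, Ctsa, is a protease. DESeq2 also called 0. For Cd63 and Mcoln1 the 4 CS libraries were above the 4 control libraries (1.65% of all genes), and 17 of 46 genes were higher in 4 of 4 pairs of the same sex and genotype (13.1% of all genes).

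The tetraspanin Cd63, found on late endosomes and exosomes, had 78.9 and 109 RPM in α7G control, 223 and 179 in α7G CS, 61.2 and 166 in α7E260A:G control and 226 and 312 in α7E260A:G CS. The lowest value was that of the male α7E260A:G control, all CS libraries were above it and the other controls, and the log2 fold change with CS was 1.15 ± 0.40 (adjusted p = 0.63, edgeR). Mcoln1, the lysosomal calcium channel TRPML1, had 49.8 and 53.6 RPM in α7G control, 54.7 and 54.8 in α7G CS, 48.01 and 38.7 in α7E260A:G control and 91.6 and 62.1 in α7E260A:G CS. The CS libraries lay just above the controls in α7G and further above in α7E260A:G, a log2 fold change of 0.47 ± 0.15 (adjusted p = 0.63, edgeR). Ctsk, the collagen-degrading cathepsin K, had 220.2 and 415 RPM in α7G control, 475 and 280.1 in α7G CS, 250.4 and 373 in α7E260A:G control and 761 and 589 in α7E260A:G CS. In the female α7G mice it was lower with CS, unlike the other 3 pairs, and the log2 fold change was 0.66 ± 0.32. The most negative log2 fold changes were -0.38 for Arsb and -0.29 for Ids. Arsb, which removes sulfate from dermatan and chondroitin sulfate, had 59.4 and 70.9 RPM in α7G control, 36.5 and 44.9 in α7G CS, 70.5 and 35.5 in α7E260A:G control and 54.1 and 40.8 in α7E260A:G CS, so that it was lower with CS in 3 of 4 pairs.

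In α7G alone, 36 of 46 genes were higher with CS (48.3% of all genes) with a median log2 fold change of 0.18, 0.35 for proteases and 0.15 for the others. With the CDS length offset the medians of proteases and others were 0.15 and 0.15, so the higher protease median was not seen there. When libraries were scaled by total count alone the median of all genes moved by -0.11 and 27 of 46 were higher, with a median of 0.071. The edgeR test called 0 (0% of all genes). At an unadjusted p under 0.05 there were 0 higher (1.84% of all genes) and 1 lower, Galc (348 of all 7191 genes were lower). In unscaled RPM 23 of 46 were higher in males (39.1% of all genes) and 30 in females (40.6%). The highest log2 fold changes were 1.21 ± 0.56 for Cd63 and 0.64 ± 0.32 for Cd68, and the most negative -0.80 ± 0.28 for Galc and -0.56 ± 0.28 for Arsb. A fit of the 4 α7G libraries alone called 3 lysosomal genes, Cd63, Cd68 and Galc, and 16% of all genes, a larger share than that of the lysosomal genes. Ctsd had 0.36 ± 0.37. The summed alveolar macrophage markers were 25854 and 32558 RPM in α7G control and 32186 and 37978 after CS, with a median log2 fold change of 0.28 over 28 genes (0.023 with the offset).

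In α7E260A:G, 40 of 46 were higher with CS (44.3% of all genes) with a median log2 fold change of 0.24, 0.31 for proteases and 0.20 for the others, against -0.036 for all genes. Without the female control library the median was 0.41, without the male control 0.17, without the female CS library 0.18 and without the male CS library 0.30. The test called 0 (0% of all genes), with 2 higher at an unadjusted p under 0.05 (1.11% of all genes), Mcoln1 (0.73 ± 0.21) and Lipa (0.57 ± 0.21), neither of them a protease, and 0 lower. DESeq2 called 0 as well. In unscaled RPM 39 of 46 were higher in males (51.2% of all genes) and 44 in females (67.2%). Ctsd had 0.64 ± 0.37 (adjusted p = 0.9997, edgeR), below Cd63 (1.08), Ctsk (0.97), Mcoln1 and Ctsl (0.65). The most negative values were -0.20 for Arsb and -0.20 for Idua, the iduronidase of heparan and dermatan sulfate. The summed alveolar macrophage markers were 44711 and 74399 RPM in α7E260A:G control and 57720.1 and 77832 after CS, with a median log2 fold change of 0.024 over 28 genes (0.046 with the offset).

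**Figure D5:**
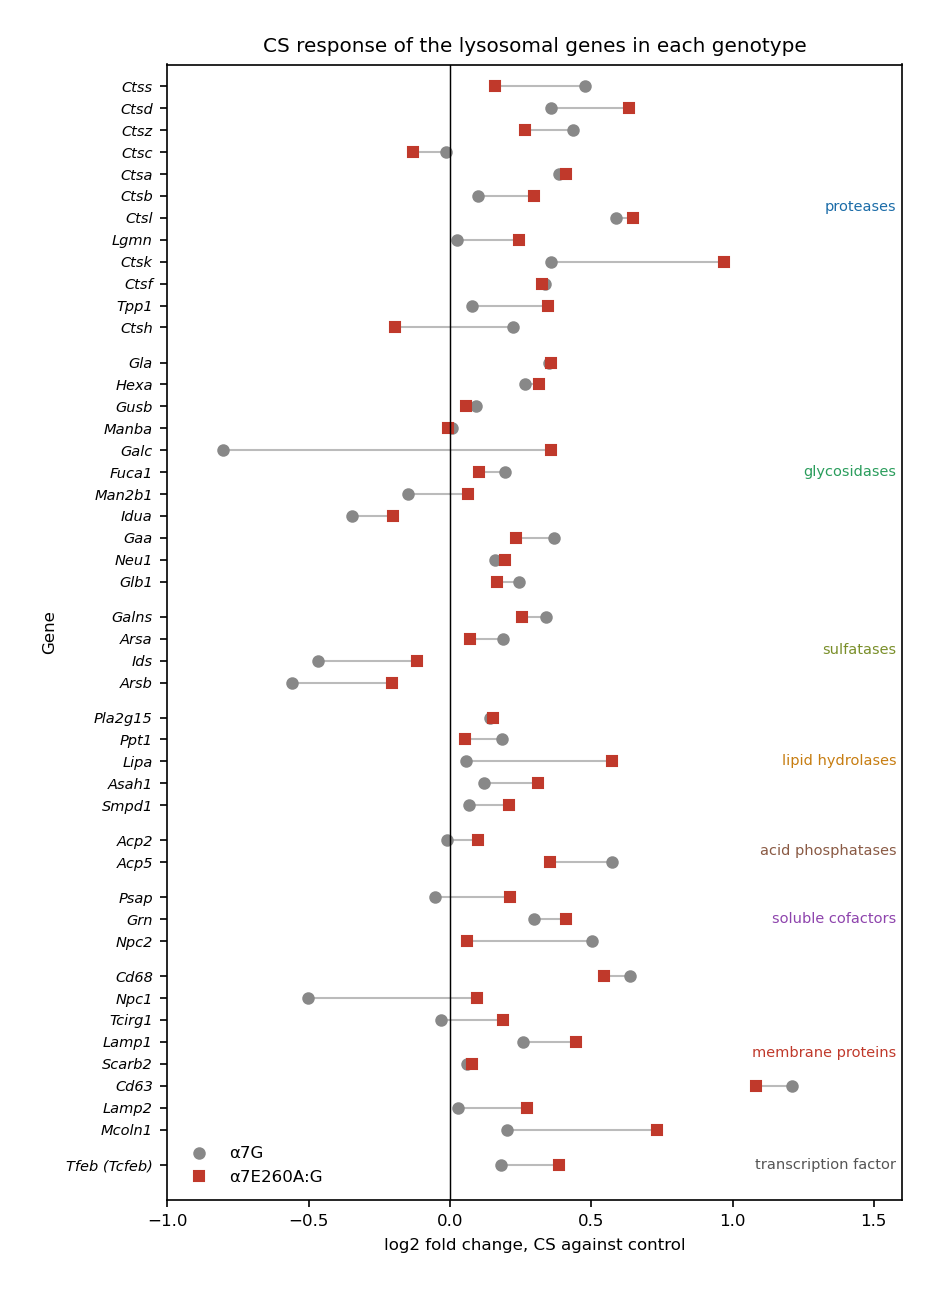
log2 fold change with CS (horizontal axis) of each tested lysosomal gene in α7G (grey circles) and in α7E260A:G (red squares), joined by a line and grouped by role. Most points are to the right of 0 in both genotypes, Cd63 is above 1 in both, and Galc is at -0.80 in α7G and 0.36 in α7E260A:G.

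Whether the response to CS differed by genotype was examined with an interaction term. This term was positive for 29 of 46 genes (52.8% of all genes) with a median of 0.054, and with scaling by total count for 40 of 46, where the median of all genes moved by 0.13. Without the male α7E260A:G control the median was -0.010 and without the female one 0.28. Neither edgeR (0% of all genes) nor DESeq2 called a lysosomal gene. At an unadjusted p under 0.05 there was 1 with a positive difference (0.89% of all genes), Galc, the galactosylceramidase deficient in Krabbe disease. Galc had 41.1 and 46.8 RPM in α7G control, 20.9 and 25.4 in α7G CS, 49.8 and 25.4 in α7E260A:G control and 56.7 and 42.7 in α7E260A:G CS. Both α7G CS libraries were below both α7G controls, while both α7E260A:G CS libraries were above their controls of the same sex, with the female α7E260A:G control near the α7G CS libraries. The difference was 1.16 ± 0.39 (edgeR, adjusted p = 0.997). The next in size was Ctsk with 0.61 ± 0.64, and the most negative were Npc2 with -0.45 ± 0.61 and Ctsh with -0.42 ± 0.50. With the CDS length offset the term for Npc2, which has a short CDS, was positive (0.20). For Ctsd the difference was 0.28 ± 0.52 (adjusted p = 0.997, edgeR).

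Other genes of the lysosome, from lists that do not include the 48, were read in the same fit. Of 76 tested, 67 were higher in α7E260A:G (56.1% of all genes), with a median of 0.34. At an unadjusted p under 0.05 in edgeR, 22 were higher (7.09% of all genes) and 1 was lower. In edgeR 0 passed the adjusted p (0.0834% of all genes). With the CDS length offset 14 higher (4.02% of all genes) and 1 lower passed it. All 17 tested V-ATPase subunits were higher (median 0.45, 6 at an unadjusted p under 0.05), with the most positive log2 fold changes for Atp6v0d2 (1.00 ± 0.24) and Atp6v0a1 (0.73 ± 0.17). Other enzymes and cofactors were higher for 14 of 18 (median 0.31), among them the prenylcysteine oxidase Pcyox1 (0.81 ± 0.15). Other membrane proteins were higher for 12 of 15 (median 0.34), with Lamp3, a lamellar body protein of AT2 cells, at -1.38 ± 0.37 and the chloride exchanger Clcn7 at 0.72 ± 0.18. Lamp3 had 307 and 327 RPM in α7G control, 125 and 237 in α7G CS, 78.1 and 82.8 in α7E260A:G control and 53.1 and 131 in α7E260A:G CS, so that it was lower in α7E260A:G in 4 of 4 pairs.

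Genes that deliver hydrolases to the lysosome were higher for 15 of 16 (56.1% of all genes), with a smaller median of 0.15. With the CDS length offset 12 of 16 were higher (median 0.12). In RPM 2 of 16 were higher in 4 of 4 pairs (7.84% of all genes). Sort1, the sorting receptor sortilin, and Gnptab, which makes the mannose 6-phosphate tag, had log2 fold changes of 0.97 ± 0.24 and 0.56 ± 0.19. Of the regulators on the lysosome surface 7 of 8 were higher (56.1% of all genes, median 0.33), with Fnip2 at 1.16 ± 0.39 and Fnip1 at 0.54 ± 0.17, partners of folliculin. With the CDS length offset 6 of 8 were higher (median 0.22). In RPM 0 of the 8 were higher in 4 of 4 pairs (7.84% of all genes). One was lower in 4 of 4 pairs (1082 of all 7191 genes). Both tested inhibitors of cathepsins had positive values, Cstb 0.80 ± 0.45 and Cst3 0.23 ± 0.32, with adjusted p from 0.58 to 0.89 in edgeR. Neither was higher in 4 of 4 pairs. The 7 listed inhibitors summed to 953 to 1461 RPM in α7G and 954 to 2078 in α7E260A:G, with the highest sum in the female α7E260A:G control.

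Under the count filter were Ctse, Sgsh and the second Glb1 row. Ctse, the endosomal aspartic protease cathepsin E, had 6.98 and 2.99 RPM in α7G control, 6.05 and 5.87 in α7G CS, 2.92 and 14.8 in α7E260A:G control and 5.61 and 3.98 in α7E260A:G CS, and its highest value was that of the female α7E260A:G control. Sgsh, the heparan sulfamidase, had 17.9 and 12.7 RPM in α7G control, 7.91 and 12.6 in α7G CS, 12.1 and 3.93 in α7E260A:G control and 10.97 and 6.08 in α7E260A:G CS. It was lower in α7E260A:G in 3 of 4 pairs, with 12.8 ± 4.09 RPM in α7G and 8.26 ± 3.89 in α7E260A:G (SD, n = 4). The second Glb1 model lies within the span of the first on chromosome 9 and the same strand, and had between 1.805 and 11.8 RPM. The coding sequences of the 2 models share 0.0% of their bases, so CDS reads were not ambiguous between them.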

How the data were processed

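RNA-Seq libraries of 4 groups (1 male and 1 female each) were analysed. Per the labels and the study's methods, the authors prepared stranded poly-A libraries, aligned reads with STAR to mm9 and counted them on coding sequence with htseq-count and GENCODE M1, and the deposited values are these raw counts for 22756 genes, without normalization. Tool versions are not given in the sources used here. Every gene had the same ID and symbol in GENCODE M1, from which mm9 positions and CDS lengths were taken.

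Totals were 8020726 to 10944100 counts, and 3 counts, taken as the floor, are 0.274 to 0.374 RPM. The filter was the study's mean count of 200, with immunoglobulin, histocompatibility, Gm and ribosome genes removed by name (7191 kept). Counts were tested with edgeR 4.0.16 (limma 3.58.1, R 4.3.3) by the quasi-likelihood test with TMM factors (0.882 to 1.09), a model of the 4 groups without sex (common dispersion 0.0767) and Benjamini-Hochberg adjustment. Exact permutation tests compared 4 against 4 libraries over 70 arrangements. Alternatives were DESeq2 1.42.0, other scalings and filters, a lowess (span 0.667) of each library on log2 CDS length as an offset, sex as a replicate block, fits of 1 genotype and leaving out each library. The fits were tested on simulated counts with a common dispersion, without dependence on CDS length, and with larger changes than the lysosomal genes had. The simulation therefore does not show how well changes of their size are found. Python 3.11.15, numpy 2.4.6, pandas 2.3.3, scipy 1.17.1 and matplotlib 3.10.9 were used.

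The members, gene lists and tests were chosen with earlier results of these data known. Genes named are Ctsd, the 2 of highest mean RPM per role, the 2 highest and 2 lowest log2 fold changes per comparison, those past the threshold and those under the filter, and 2 per further list, of which 1 is not reported here. Further genes named as examples, or where a count was small, were chosen after their values were seen. The comparisons share libraries and are not independent. Promoters are from RefSeq. No protein sequences were used here.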

Additional observations from a re-analysis of the deposited data

Results flagged for a closer look

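For 7 lysosomal genes the ratio of RPM after CS to control went one way in both sexes of one genotype and the opposite way in both sexes of the other. The difference was tested as an interaction in edgeR, and the adjusted p was 0.997 to 0.998 for all 7. Only lysosomal genes were searched for such opposite ratios, and the share of all genes with them was not computed. The count of 7 therefore cannot be read as particular to lysosomal genes. The ratios (male and female) of Galc were 0.509 and 0.543 in α7G and 1.14 and 1.68 in α7E260A:G, with an interaction of 1.16 on the log2 scale (unadjusted p = 0.0201 in edgeR). Those of Npc1 were 0.558 and 0.76 in α7G and 1.00 and 1.32 in α7E260A:G (0.60) and those of Psap 0.819 and 0.969 in α7G and 1.25 and 1.21 in α7E260A:G (0.27). For both genes the lower level after CS in α7G was not seen with the CDS length offset, where the log2 fold change with CS in α7G was 0.0065 for Npc1 (against -0.50) and 0.0057 for Psap (against -0.051), and the interaction was 0.29 and 0.19. Ctsh had 1.10 and 1.04 in α7G and 0.945 and 0.935 in α7E260A:G (-0.42), the opposite order. The interaction was 0.25 for Lamp2, 0.11 for Acp2 and -0.035 for Gusb. The interaction is on TMM-scaled counts and the ratios are of RPM.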

How the results depend on the processing

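Each group has 2 libraries of different sex, so differences between sexes and between mice cannot be told apart, and 4 libraries against 4 give no exact permutation p under 0.0286. Depth limits only the weakest genes. Directions between the genotypes were positive under every alternative for 39 of the 46 lysosomal genes and negative for 1 (Smpd1), and 6 (Ctsh, Arsb, Tfeb, Npc2, Ids and Cd63) changed sign in at least 1, all of them without a call. Across the CS comparisons and the interaction more genes did so, 20 in α7E260A:G, 19 in α7G, 10 over both genotypes and 33 in the interaction.

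The genotype count of 0 called in edgeR became 22 with DESeq2, 20 with the CDS length offset, 1 (Pla2g15) with sex as a replicate block and 25 with the replicate block and the offset together. It was 0 with other scalings, filterByExpr or no filter, and lay between 0 and 5 when each library was left out, 5 without the male and 3 without the female α7E260A:G control. With the offset these counts ran from 1 to 27. Same-sex libraries of different groups correlated in their deviations from group means with r from -0.05 to 0.84. The main model left sex out because the study's methods average male and female, and not because of these correlations. With each library left out, the median log2 fold change between genotypes ran from 0.43 to 0.57, that of CS over both genotypes from 0.14 to 0.28, in α7G from 0.13 to 0.20, in α7E260A:G from 0.17 to 0.41 and of the interaction from -0.010 to 0.28. Scaling by total count moved the medians to 0.42 for genotype, 0.071 for CS in α7G and 0.20 for the interaction. A fit of the α7G libraries alone called 3 genes in CS in α7G (16% of all genes), against 0. The count of genes without overlap between CS and control was 1 on TMM-scaled values and 4 with CDS length removed, against 2, and 2 to 5 with a library left out (4 without the male α7G CS or the male α7E260A:G CS, 5 without the female α7E260A:G control). The count without overlap between genotypes stayed between 18 and 24 under all alternatives, and that at an unadjusted p under 0.05 between 19 and 33. Leaving out a library makes separation without overlap easier for any gene. For most of the counts under these alternatives the share of all genes was not computed. Their changes therefore cannot be read as particular to lysosomal genes. The causes were not tested. The offset with each library left out was chosen after seeing the data.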

Other observations

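Of the 12 lysosomal genes with CACGTG in the promoter window 11 were tested. Their median log2 fold change between the genotypes was 0.50, and that of the 30 tested genes whose windows lack it was 0.50. With CS over both genotypes the medians were 0.35 (11 of 11 higher) and 0.15 (23 of 30 higher). The split was made after the values were seen, and no test was run on it.

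Ctsd, Ctsc, Tpp1 and Smpd1 lie on chromosome 7, as does Chrna7 (70243578 to 70357455 of mm9). The 42 tested lysosomal genes on other chromosomes had a median log2 fold change of 0.50 between the genotypes, with 40 of 42 higher. On chromosome 7 the values were 0.97 for Ctsd, 0.74 for Ctsc, 0.43 for Tpp1 and -0.19 for Smpd1. Whether their position near or far from Chrna7 has a part in these levels was not tested.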
